A study of Homo sapiens
Mus musculus with 8 samples.

Results

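Epcam and 4 other mouse genes, Ckap4, Ngfrap1, Cd24a and Ctss, were followed in IVA12 cells and EL4 cells through every library. These members were chosen by their high level in IVA12 cells and their level near 0 in EL4 cells in earlier work on these data. They are 5 of the 27998 mouse genes in a reference list of 60736 human and mouse genes. Their values came from 4704 IVA12 cells and 8034 EL4 cells, out of 12830 mouse cells with at least 10000 unique molecular identifiers (UMIs, each marking 1 captured transcript). A barcode was called a mouse cell when over 80% of its UMIs were from mouse and under 10% of these were mitochondrial. It was called EL4 when Lgals1 and S100a6 together took at least 0.04% of its mouse UMIs, and IVA12 when they took less than 0.015%. These 2 genes separated the lines, and 92 mouse cells fell between the limits. Since the choice of members used the difference between the lines, that difference is described below and not tested.

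Single-cell libraries had been made with 3 Chromium kits, of which 3′ v2 and 3′ v3 tag the 3′ end of each messenger RNA and 5′ v1 the 5′ end. Every library was made from 4 lymphocyte lines mixed in equal parts by viable count, without any treatment. They were the mouse lines EL4 (T cells) and IVA12 (B lineage) and the human lines Jurkat and TALL104. Recovery was not equal, as in 3′ v2 with 422 EL4, 94 IVA12 and 230 human cells of at least 10000 UMIs. The 7 libraries analysed were 1 of 3′ v2 (its replicate 2), 2 of 5′ v1 and 4 of 3′ v3. By the sample sheet, the 5′ v1 libraries came from a single cell mixture, 3′ v3 replicates 1 and 3 from another (preparation F) and 3′ v3 replicates 2 and 4 from a further one (preparation G), so kit and cell mixture cannot be told apart.

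The IVA12 cells carried several B lineage markers but not the full set. Cd79b, a signalling chain of the B cell receptor, stood at 197 to 341 CPM (UMIs of a gene, scaled to a fixed total of mouse UMIs) in IVA12 cells against 0.62 to 13.9 in EL4 cells, and Ms4a1 (CD20) at 77.2 to 165 against 0 to 5.68. Blnk, an adaptor of that receptor, was at 87.7 to 196 CPM in IVA12. In all, 7 of the 15 B lineage markers in the reference were under 1 CPM in every library, among them Cd79a, Pax5 and the class II genes H2-Aa and H2-Ab1. Of the 8 that were tested 6 were higher in IVA12, and 2 were lower, the class II gene H2-Eb1 by 2.01 ± 0.28 log2 and the tetraspanin Cd37 by 0.55 ± 0.11 (SE). All 5 plasma cell markers in the reference were present, with Jchain at 833 to 4347 CPM and Xbp1 at 214 to 339. In EL4 cells Cd3g was at 149 to 355 CPM, Thy1 at 379 to 786, and Cd4 was listed at 0 to 0.163 although the line is described as CD4+. IVA12 is therefore named here as in the labels, and its cells are described by these genes.

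Each of these genes has its own role. EPCAM is a cell surface glycoprotein that holds epithelial cells to each other. CKAP4 (CLIMP-63) spans the membrane of the endoplasmic reticulum and helps to shape its sheets, which are abundant in secretory cells. NGFRAP1 (BEX3) is a small intracellular protein that binds the death domain of the p75 neurotrophin receptor. CD24 is a heavily glycosylated, lipid-anchored surface protein found on B cell precursors, and cathepsin S, the product of Ctss, is the lysosomal protease that cuts the invariant chain from class II molecules in antigen-presenting cells.

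Epcam was found in nearly all IVA12 cells. The 3′ v2 library had 147.5 CPM, the 5′ v1 libraries had 219 and 214 CPM, and replicates 1 to 4 of 3′ v3 had 192, 96.2, 208 and 102 CPM. From 84.9% to 95.8% of IVA12 cells held at least 1 Epcam UMI. The low libraries were the 2 of preparation G, which stood apart from the 5 others.

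Ckap4 was the steadiest member between libraries. It stood at 130.5 CPM in 3′ v2, at 216 and 212 in 5′ v1, and at 195, 213, 207 and 226 in 3′ v3, with 94.7% to 98.7% of IVA12 cells holding a UMI. The single 3′ v2 library was the low one, and the 6 others lay close together.

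Ngfrap1 followed Epcam. It stood at 120 CPM with 3′ v2, at 138 and 135 CPM with 5′ v1, and at 145, 70.2, 136.5 and 67.8 CPM in the 4 replicates of 3′ v3, again low in preparation G alone. Ctss was at 54.7 CPM in 3′ v2, at 153 and 130 in 5′ v1, and at 154, 78, 154 and 74.3 in 3′ v3, so that it was low in preparation G and lowest in 3′ v2.

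Cd24a split by kit instead. It was at 50 CPM in 3′ v2, at 125 and 126 in 5′ v1 and at 56.7, 57.2, 54.6 and 53.1 in 3′ v3. The 2 libraries of 5′ v1, both from a single mixture, stood above all 5 libraries of the 3′ kits. How many of all genes separate in this way was not counted. Cd24a was also the member found in the fewest IVA12 cells, from 53.2% of them in 3′ v2 to 87.1% in 5′ v1 replicate 2.

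**Figure D1:**
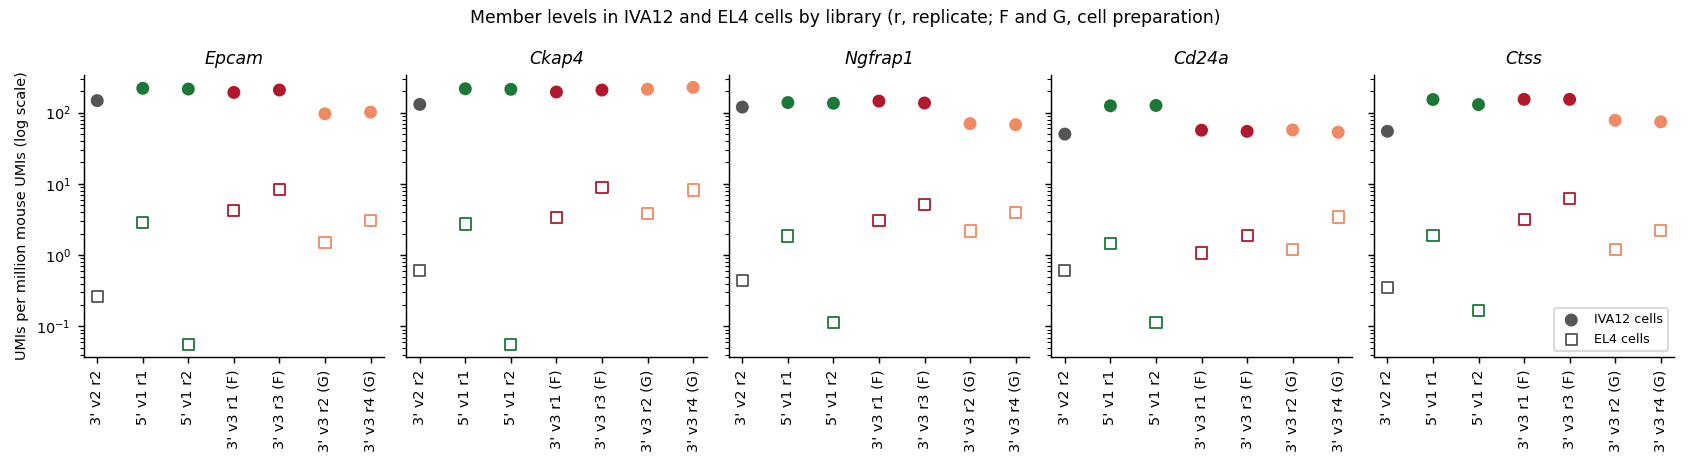
Level of each member in IVA12 cells (filled circles) and EL4 cells (open squares) in CPM, on a log axis, for the 7 libraries; F and G are the cell preparations of 3′ v3. IVA12 lies above EL4 in every library for every member, the lowest IVA12 value (50 CPM, Cd24a in 3′ v2) being above the highest EL4 value (8.94 CPM, Ckap4 in 3′ v3 replicate 3).

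The EL4 values of the members were small but, relative to their mean, varied far more between libraries than the IVA12 values. For Epcam they were 0.262 CPM in 3′ v2, 2.87 and 0.0564 in 5′ v1 and 4.2, 1.5, 8.37 and 3.03 in 3′ v3. The members had like shares in some libraries and not in others. As a share of the IVA12 level of the same library, EL4 was at 4.03% for Epcam, 4.31% for Ckap4, 3.74% for Ngfrap1, 3.45% for Cd24a and 4.06% for Ctss in 3′ v3 replicate 3, the library with the most cells. For 5′ v1 replicate 1 the same shares lay between 1.18% for Cd24a and 1.34% for Ngfrap1. They spread more widely in 3′ v3 replicate 4, with 2.99% for Epcam and for Ctss, 3.63% for Ckap4, 5.83% for Ngfrap1 and 6.48% for Cd24a, and in 3′ v2, from 0.177% for Epcam to 1.22% for Cd24a. The EL4 values of 3′ v3 replicate 4 also depended on the cell limits, as given below. In 5′ v1 replicate 2 EL4 cells held 1 to 3 UMIs of each member, so that the Epcam share of 0.0263% had an exact 95% interval of 0.000666% to 0.147%, which covers counting error only.

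Other genes of IVA12 had like shares in EL4 cells. In 3′ v3 replicate 3 the EL4 share of the IVA12 level was 4.09% for Cd79b, 3.44% for Ms4a1 and 4.2% for Sdc1 (syndecan 1, a surface proteoglycan of plasma cells). With 5′ v1 replicate 1 it was 1.21%, 1.41% and 1.39% for the same genes. The fold of the members between the lines thus ranged widely over the libraries, from 15.4-fold (Cd24a, 3′ v3 replicate 4) to between 766-fold and 3798-fold in 5′ v1 replicate 2, where 1 to 3 EL4 UMIs carried it. Fitted over all 7 libraries with library as a block, the IVA12-minus-EL4 difference was 5.90 ± 0.50 (SE) on the log2 scale for Epcam, 5.81 ± 0.49 for Ckap4, 5.51 ± 0.46 for Ngfrap1, 5.52 ± 0.43 for Cd24a and 5.73 ± 0.38 for Ctss. All 5 members passed the filter on low counts. In that edgeR fit 77% of the 11668 genes tested had an adjusted p under 0.05 and 38% were called higher and 39% lower in IVA12.

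In 5′ v1 replicate 1 and in 3′ v3 most member UMIs of EL4 cells lay in few barcodes, here called marker-rich. The exception was Cd24a in 3′ v3 replicate 2, with 26.3% in these barcodes. There the 6 EL4 cells with the most Cd24a UMIs held 73.7%. EL4 barcodes were called marker-rich by their summed IVA12 markers, other than Pou2af1 and Cd37, which EL4 cells also held. The sum had to reach 20% of the median of IVA12 cells in the same library. H2-Eb1, lower in IVA12 than in EL4 cells as given above, was kept in the sum. None of the members is among these markers. There were 1 such barcode in 3′ v2, 28 and 4 in 5′ v1, and 24, 12, 90 and 36 in 3′ v3, or 0.237% to 3.35% of EL4 cells. Libraries also differed in the number of cells targeted. It was 2000 in 3′ v2, 5000 and 2000 in 5′ v1, and 3000, 3000, 6000 and 6000 in replicates 1 to 4 of 3′ v3. The part of that in these shares, and in the EL4 values, was not tested. In 5′ v1 replicate 1 the 28 barcodes held 93.2% of the Epcam UMIs of all EL4 cells, 89.3% of Ckap4, 93% of Ngfrap1, 93.3% of Cd24a and 91.4% of Ctss. In 3′ v3 replicate 3 the 90 barcodes held 64.8% of the Epcam UMIs and 52.3% to 64.3% of those of the other members. In 3′ v2 the 1 marker-rich barcode held none of the 3 to 7 UMIs of each member.

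The marker-rich barcodes of 5′ v1 replicate 1 and of 3′ v3 held members and T cell genes side by side. In 5′ v1 replicate 1 they held Epcam at 93.5 CPM and Thy1 at 468, where the other EL4 cells had 0.201 and 768. In 3′ v3 replicate 3 they held Epcam at 102 CPM and Thy1 at 219, against 3.11 and 388. The 4 of 5′ v1 replicate 2 had Epcam at 7.94 CPM and neither Ckap4 nor Cd24a. Their T cell genes were not all higher, with Thy1 at 1446 against 662 and Cd3g at 493 against 147, but Lck at 63.6 against 166. The 1 of 3′ v2 had none of the members, Thy1 at 1427 against 665, Cd3g at 535 against 199 and Lck at 0 against 117. The summed B lineage markers chose these barcodes, so the levels of single markers in them are not read as a result. The sum did not need each marker. In 3′ v2 the barcode held no Cd79b, Ms4a1 or Blnk. The 4 of 5′ v1 replicate 2 held no Ms4a1, Cd79b at 23.8 CPM and Blnk at 31.8, against 214 and 190 for the last 2 in IVA12 cells. The median total of the marker-rich barcodes was 54321, 34860, 49358.5 and 45044.5 UMIs in 3′ v3, against 29799, 29790, 28621 and 27821.5 in the other EL4 cells. It was 31259 and 27587.5 in 5′ v1, against 26304 and 27877.5, and 11231 against 26643 in 3′ v2. The marker-rich barcodes were thus deeper in 3′ v3, less so in replicate 2, and in 5′ v1 replicate 1, but not in the 2 libraries with the fewest of them. No doublet caller was run.

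Leaving out the marker-rich barcodes lowered the EL4 share of every member in 5′ v1 replicate 1 to between 0.0807% (Cd24a) and 0.14% (Ckap4) of the IVA12 level. For 3′ v3 replicate 3 the share was 1.5% for Epcam, 1.71% for Ckap4, 1.41% for Ngfrap1, 1.74% for Cd24a and 1.63% for Ctss. The fitted line difference then rose to 7.51 for Epcam, 7.54 for Ckap4, 7.27 for Ngfrap1, 6.88 for Cd24a and 7.13 for Ctss.

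The same count was made in human cells, here barcodes with at least 10000 UMIs of which over 80% were of human genes, with no mitochondrial limit. Since that limit takes out droplets with over 20% mouse UMIs, while a droplet shared by both mouse lines can pass as EL4, the human value is no measure of shared droplets in EL4 cells. In 3′ v3 replicate 3 they held 0.0744 Epcam UMIs per cell, against 0.249 in all EL4 cells and 0.0909 in EL4 cells without the marker-rich barcodes. For 5′ v1 replicate 1 the same values were 0.00352, 0.0759 and 0.00531. Among human cells 3′ v3 replicate 3 was the highest for every member, while among EL4 cells it was so for every member but Cd24a, which was highest in 3′ v3 replicate 4 (0.106 against 0.0562). The order among EL4 cells depended on the cell limits. With mitochondrial shares under 5%, replicate 4, with 72 EL4 cells left, was highest for every member, Epcam at 0.625 against 0.234 in replicate 3. Barcodes with under 100 UMIs, taken as free RNA, carried all members too, Epcam at 24.7 to 89.2 CPM.

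On average over the 7 libraries EL4 cells held more UMIs of each member per cell than human cells. For Epcam the mean was 0.0859 in EL4 and 0.0173 in human cells, a difference of 0.0686 ± 0.0611 (SD, n = 7) that was above 0 in 7 of 7 libraries (exact two-sided sign-flip permutation test, p = 0.0156, the smallest that 7 libraries allow). Ckap4, at 0.0981 ± 0.0814, and Ctss, at 0.0501 ± 0.0427, were also higher in all 7 libraries (p = 0.0156 for each in the same exact test). For Ngfrap1 the difference was 0.058 ± 0.0466 and for Cd24a 0.0303 ± 0.0323, each above 0 in 6 of 7 libraries, the exception being 3′ v2 (exact p = 0.0312 and 0.0469). These p-values are 1 per member and were not adjusted. With any library but 3′ v2 left out, those of Ngfrap1 and Cd24a were 0.0625 to 0.0938 in the same exact test, where 6 libraries allow 0.0312. The human limit takes out droplets with many mouse UMIs, while droplets shared by both mouse lines can stay in the EL4 class. EL4 cells were also deeper, as given below, and the choice of members used their EL4 level. The cell limits thus favour a higher EL4 value, and nothing is read from these p-values.

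With the marker-rich barcodes left out, the difference between EL4 and human cells shrank to 0.00878 UMIs per cell for Epcam (exact p = 0.0312), 0.0125 for Ckap4 (p = 0.0469), 0.007 for Ngfrap1 (p = 0.141), 0.0043 for Cd24a (p = 0.281) and 0.00828 for Ctss (p = 0.0156, above 0 in 7 of 7). Since these barcodes were chosen for high IVA12 markers, a fall in other IVA12 genes is built into the choice. When Pou2af1 and Cd37 were kept among the markers that define these barcodes, the difference was 0.00543 for Epcam, 0.00958 for Ckap4, 0.005 for Ngfrap1, 0.00159 for Cd24a and 0.00664 for Ctss, with exact p-values from 0.0625 to 0.516. EL4 and human cells also differed in depth, with median totals of 26328 to 29966 against 13171 to 20376.5 UMIs. The part of depth in the remaining difference was not tested, so nothing is read from the p-values of this comparison either.

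The share of cells with a member UMI was also counted. With 3′ v3 replicate 3, 9.94% of EL4 cells held an Epcam UMI and 6.62% of human cells did. Without marker-rich barcodes the EL4 share was 7.89%. For 5′ v1 replicate 1 the counts were small once these barcodes were left out. An Epcam UMI was held by 3 of 1131 EL4 cells (0.265%) and 4 of 1136 human cells (0.352%). The numbers were the same for Ctss, while UMIs per cell of both stayed higher in EL4. Ngfrap1 (2 against 7 cells, 0.177% against 0.616%) and Cd24a (2 against 6 cells, 0.177% against 0.528%) were lower in EL4 there on both measures, at 0.00354 against 0.00616 and 0.00265 against 0.00528 UMIs per cell. For 5′ v1 replicate 2, 0.157% of EL4 cells, with 1 UMI in all, and 0 of 561 human cells held an Epcam UMI. That allows a human share of up to 0.535%, taken as 3 counts of 561.

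**Figure D2:**
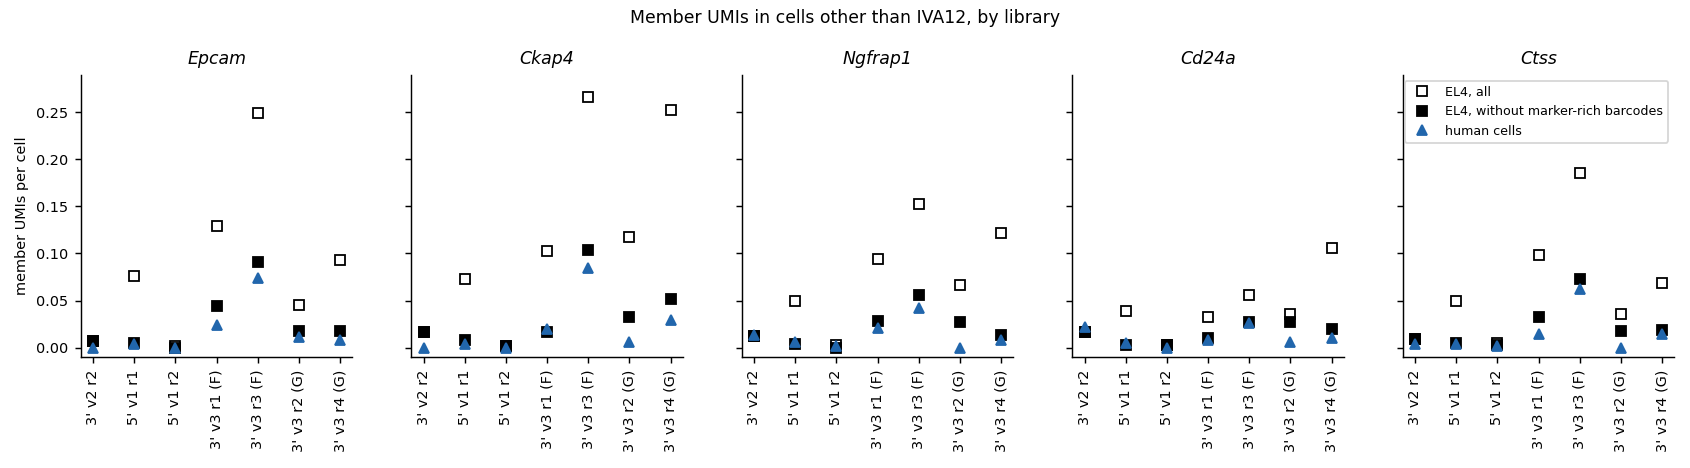
Member UMIs per cell in EL4 cells (open squares), in EL4 cells without marker-rich barcodes (filled squares) and in human cells (triangles) for the 7 libraries. In 3′ v3 replicate 3 the filled square and the triangle of Epcam stand at 0.0909 and 0.0744 and the open square at 0.249, and the open squares reach 0.266 (Ckap4).

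The kits were compared within IVA12 cells, a contrast that the choice of members did not use. Cd24a was lower in 3′ v3, at 55.4 ± 1.9 CPM (SD, n = 4) against 125 ± 1.03 in 5′ v1 (n = 2), a fitted log2 difference of -1.15 ± 0.16 (SE) with an adjusted p of 0.0092 in edgeR's quasi-likelihood test. That was 1 of the 5 members called, where 9.71% of the 11981 genes tested were called, 4.72% higher and 4.99% lower in 3′ v3. The difference was -1.01 with preparation F alone and -1.28 with preparation G alone, fits in which 60.1% and 68.1% of genes were called. With either 5′ v1 library left out it stayed near that size, at -1.13 and -1.15, while the adjusted p rose to 0.144 and 0.123.

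The other members were not called between the kits. Ckap4 differed by -0.00347 ± 0.149 log2 (adjusted p = 0.992), Epcam by -0.46 ± 0.43 (0.532), Ngfrap1 by -0.31 ± 0.43 (0.694) and Ctss by -0.22 ± 0.43 (0.781) in the same edgeR fit. The last 3, with the larger errors, also differed between the preparations of 3′ v3. Against 5′ v1, Epcam was at 0.04 log2 with preparation F and at -1.22 with preparation G, Ngfrap1 at 0.20 and -1.09, and Ctss at 0.28 and -0.995. The number of genes called depended on the 5′ v1 libraries, since 1163 were called with both and 23 or 32 with 1 of them.

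Between the preparations of 3′ v3, Epcam, Ngfrap1 and Ctss were lower together in G, while Ckap4 and Cd24a differed less. Preparation G was below F by 1.28 log2 for Epcam, 1.29 for Ngfrap1 and 1.27 for Ctss after scaling by edgeR's TMM factors, with no overlap between the 2 libraries of each. Among the genes tested, 8.92% were lower and 7.61% higher in G by over 1 log2 without overlap. Cd24a was lower by 0.28 and Ckap4 by 0.13 on that scale, also with no overlap. How many of all genes lack overlap at any size was not counted, so nothing is read from that. On the plain CPM scale Ckap4 was higher in G (213 and 226 against 195 and 207), so its direction depends on the scaling. The libraries of Cd24a overlapped on plain CPM (57.2 and 53.1 in G against 56.7 and 54.6 in F). These are values of 2 libraries each and were not tested. Preparation G also differed in its mitochondrial share, with medians of 6.63% and 6.93% in IVA12 cells against 5.76% and 4.32% in F, and the part of that in the lower levels was not tested.

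The size of the line difference is given by kit as a description with no test, since the choice of members used that difference. The fitted line-by-kit term (the IVA12-minus-EL4 difference of 3′ v3 minus that of 5′ v1) was -1.96 ± 0.57 log2 (SE) for Ngfrap1, -2.10 ± 0.62 for Cd24a, -1.66 ± 0.54 for Ctss, -1.78 ± 0.61 for Epcam and -1.83 ± 0.66 for Ckap4. Over all 13073 genes tested 29.9% were called by this term in edgeR, 13.2% with a larger and 16.7% with a smaller term in 3′ v3, and nothing is read from this for the members. The term carries the EL4 values as much as the IVA12 ones, and in 5′ v1 replicate 2 these rest on 1 to 3 UMIs. Without that library the term was between -0.95 and -1.39 for the 5 members. With 5′ v1 replicate 1 left out in its place it ran from -4.29 to -6.54.

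Among IVA12 cells the members spread to different degrees. Each cell was thinned to 10000 mouse UMIs, and the spread beyond counting error was taken as the coefficient of variation (CV) that remains when the variance equal to the mean is removed. Epcam had the highest such CV of the members in 6 of 7 libraries, and in 5 of 7 with cells thinned to 5000 UMIs or with mitochondrial shares under 5%. It was 0.773 in 3′ v2, 0.77 and 0.845 in 5′ v1 and 0.739, 0.607, 0.713 and 0.749 in 3′ v3. The median over the 3258 to 4304 genes with a mean of at least 0.3 UMIs was 0.242 to 0.315. Epcam's Fano factor, the variance over the mean, lay between 1.34 and 2.43 and above that of 91.4% to 98% of those genes. A share of 21.7% to 47.5% of thinned IVA12 cells held no Epcam UMI, where counting error alone at the same mean would leave 11% to 40.2%.

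The remaining members were closer to counting error at this depth, except Ctss in 3′ v2. Cd24a was above Epcam in 3′ v3 replicates 3 (0.723 against 0.696) and 4 (0.854 against 0.730) when thinned to 5000 UMIs. With mitochondrial shares under 5%, Ngfrap1 was above it in 5′ v1 replicate 1 (0.816 against 0.770), as was Cd24a in the 37 cells of 3′ v3 replicate 4 (1.25 against 1.07). Ckap4 had a CV of 0.31 to 0.53 and Ngfrap1 of 0.238 to 0.589. Cd24a had 0.456 to 0.691, above 78.2% to 96.9% of genes by this measure. Ctss ranged from 0.264 in 5′ v1 replicate 2 to 0.891 in 3′ v2. The 3′ v2 value rested on 94 cells and was 0.263 with these cells thinned to 5000 UMIs and 0.337 in the 92 cells with mitochondrial shares under 5%.

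The Fano factors of the members were compared between the kits, where no p under 0.05 could be reached. Those of 3′ v3 were lower on average than those of 5′ v1 with a difference of -0.626 for Epcam (exact two-sided permutation test, p = 0.133), -0.0681 for Ckap4 (p = 0.4), -0.229 for Ngfrap1 (p = 0.0667), -0.316 for Cd24a (p = 0.0667) and -0.0913 for Ctss (p = 0.6). With 4 against 2 libraries the smallest p that this exact test allows is 0.0667. The Fano factor rises with the mean, and the means differed with it. For Epcam the thinned mean was 2.21 and 2.00 UMIs in 5′ v1, 1.82 and 2.09 in preparation F and 0.911 and 1.04 in G, with Fano factors of 2.31 and 2.43, 1.99 and 2.07, and 1.34 and 1.58. For Cd24a it was 1.23 and 1.21 in 5′ v1 against 0.543 to 0.606 in 3′ v3.

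Cells high in 1 member were hardly higher in another. Over the 10 pairs of members and 7 libraries, Spearman's correlation across thinned IVA12 cells of a library ran from -0.0792 to 0.173 with a median of 0.0253. These are descriptions over 94 to 1584 cells that share a library and a depth, and in counts this sparse a weak correlation is no finding. The same correlation of Epcam with the summed G2 and M phase genes was between -0.0624 and 0.0368 in 6 libraries and 0.261 in the 94 cells of 3′ v2.

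**Figure D3:**
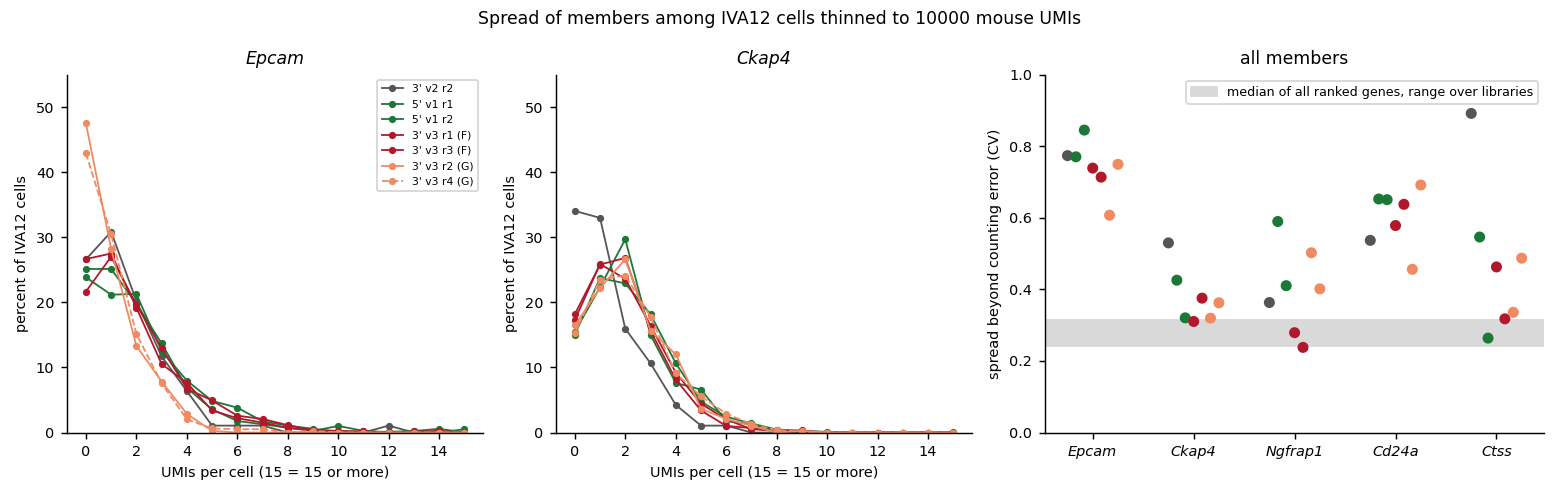
Left and centre, percent of IVA12 cells by number of Epcam or Ckap4 UMIs after thinning to 10000 mouse UMIs, 1 line per library; right, spread beyond counting error (CV) of each member with 1 point per library in the same colours, and in grey the range over libraries of the median over all ranked genes. Epcam has a longer tail and a higher CV (0.607 to 0.845) than Ckap4 (0.31 to 0.53).

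The members also differed between IVA12 cells high and low in Crip1, a small LIM domain protein. Crip1 split IVA12 cells into those at or above 1500 CPM and those below 300 CPM, with 1 to 3 cells of each library between these limits, which were set after seeing the Crip1 values. Crip1-high cells numbered 40 of 94 in 3′ v2, 50 of 864 and 17 of 394 in 5′ v1, and 29 of 591, 12 of 383, 102 of 1585 and 28 of 793 in 3′ v3. They held Cd79b at 93.8 to 264 CPM, against 202 to 346 in Crip1-low cells. The T cell genes were low in both, Cd3g at 0 to 5.72 against 0.624 to 6.38, Thy1 at 0 to 11.7 against 0.367 to 9.79 and Lck at 0 to 5.84 against 0.493 to 4.22. None of them went in 1 direction in all libraries. Thy1 was higher in Crip1-high cells of 5′ v1 replicate 1 (2.47 against 0.367, on 3 UMIs) and Lck in those of replicate 2 (5.36 against 0.493, on 2 UMIs). Other genes of IVA12 were also lower in them, Sdc1 at 0.363 to 0.685 and Blnk at 0.540 to 0.791 times the Crip1-low level in all 7 libraries, and Cd79b at 0.429 to 0.815 and Ms4a1 at 0.533 to 0.853 times in every library but 3′ v3 replicate 4 (1.03 and 1.17). The part of this shift in the members' values was not tested.

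Cd24a, Ctss and Ckap4 were lower in Crip1-high cells in all 7 libraries. Cd24a had the lowest level relative to the Crip1-low cells in every library but 3′ v3 replicate 4, where Ctss did. Cd24a stood at 9 against 79.3 CPM in 3′ v2, at 42 against 129 and 48.3 against 129 in 5′ v1, and at 18, 16.2, 18.9 and 24.8 against 58.8, 58.5, 57 and 53.9 in 3′ v3. Ctss stood at 0.285 to 0.65 times the Crip1-low level and Ckap4 at 0.587 to 0.749 times. Over the 11669 genes compared, 12.2% were lower in all 7 libraries. In 3′ v2, where Crip1-high cells were the most frequent, the Crip1-low cells alone had Cd24a at 79.3, Ctss at 70.5 and Ckap4 at 151 CPM, each above the value over all IVA12 cells of that library.

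Ngfrap1 and Epcam behaved otherwise. Ngfrap1 was higher in Crip1-high cells in all 7 libraries, by 1.22 to 1.6 times, as were 7.27% of genes. Epcam was higher in the 5 libraries of the 3′ kits, by 1.1 times in 3′ v2 and by 1.21, 1.45, 1.29 and 2.21 times in 3′ v3. It was lower in both of 5′ v1, at 0.622 and 0.667 times. Both of these came from a single mixture, and how many of all genes turn in this way was not counted. The exact 95% counting interval held 1 for Epcam in 3′ v2, at 0.895 to 1.34, and for Ngfrap1 in 5′ v1 replicate 2, at 0.927 to 1.57, and left it out for both genes in the other libraries. These intervals cover counting error only, and since the cells were split after seeing Crip1 no test was made.

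**Figure D4:**
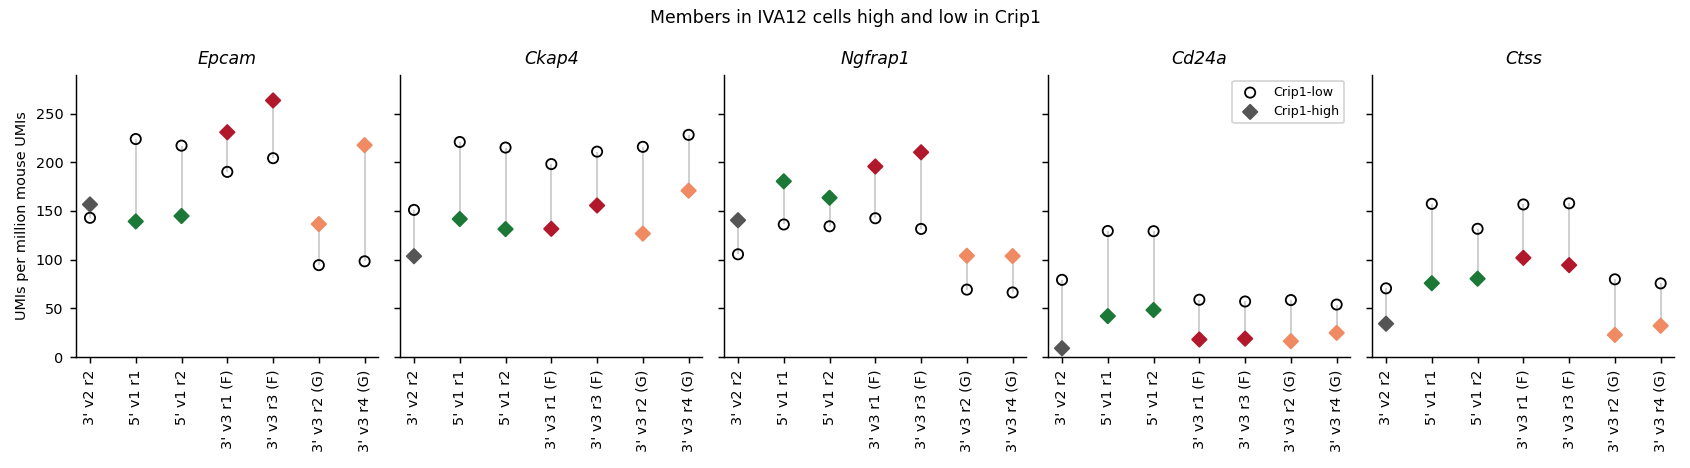
Level of each member in CPM in Crip1-low (open circles) and Crip1-high (diamonds, coloured by kit and preparation) IVA12 cells of the 7 libraries, joined by lines. Cd24a, Ckap4 and Ctss are lower and Ngfrap1 is higher in Crip1-high cells throughout. Epcam is higher in the libraries of the 3′ kits and lower in those of 5′ v1, which came from a single mixture.

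Many epithelial genes listed with Epcam were near 0 in IVA12 cells. Of a list of 35 genes for partners of EPCAM, the proteases that cut it and epithelial identity, 21 passed the filter on low counts in the line comparison, 12 were called higher in IVA12, 8 lower and 1 was not called, with a median difference of 1.76 log2 against -0.01 over all genes tested. The counts of this list and the lists below stand beside 77% of all genes called, 38% higher and 39% lower, in the same fit. Of the 35, 15 stayed under 1 CPM in every IVA12 library, among them the keratins Krt7, Krt8, Krt18 and Krt19. Cdh1 (E-cadherin) was at 1.08 to 1.85 CPM in IVA12, and Cldn7, a claudin that binds EPCAM, at 0.992 to 3.46. In a marker set of 6 epithelial genes, 3 were tested and all 3 were called higher in IVA12, with a median of 4.52 log2. The set summed to 4.07 to 6.46 CPM in IVA12 and to 0 to 0.337 in EL4.

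The most abundant genes of the EPCAM list were not restricted to IVA12. Cd44, a hyaluronan receptor that forms complexes with EPCAM, was higher by 1.76 ± 0.07 log2 (SE, adjusted p = 1.45e-08, edgeR), at 117 to 208 CPM in IVA12 and 35 to 54.7 in EL4. Spint2, an inhibitor of serine proteases, was higher by 2.63 ± 0.07. Adam10, a sheddase of surface proteins, was higher by 0.89 ± 0.10, and Ctnnb1 (beta-catenin) was lower by 0.34 ± 0.11.

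Among genes of class II antigen processing IVA12 cells held some and lacked others. Of 26 listed genes for cathepsins, their inhibitors and class II processing, 16 were tested, 11 were higher and 5 lower in IVA12, with a median of 2.02 log2. Lgmn, an asparaginyl protease of lysosomes, was at 75.8 to 190 CPM in IVA12 against 0.113 to 8.23 in EL4, and differed by 5.44 ± 0.49 log2. Cathepsin Z (Ctsz) was higher by 3.10 ± 0.21, the cathepsin inhibitor Cst3 by 1.57 ± 0.27 and cathepsin D (Ctsd) by 0.94 ± 0.10. Cd74, the invariant chain that cathepsin S cuts, was at 19.6 to 156 CPM in IVA12, while Ciita, the master regulator of class II genes, was among 11 listed genes under 1 CPM.

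The genes listed around Cd24a went in both directions. Of 23 listed binding partners, Src family kinases and early B cell genes, 14 were tested, 6 were higher in IVA12, 7 lower and 1 was not called, with a median of -1.02 log2. Selplg, the ligand of P-selectin, differed by 5.32 ± 0.35 and the surface antigen Ly6d by 5.37 ± 0.52, while Fyn, at 0.20 ± 0.12, was not called (adjusted p = 0.158, edgeR). In this list 10 genes were under 1 CPM in IVA12, among them the surrogate light chain genes Vpreb1 and Igll1 and the recombinase genes Rag1 and Rag2.

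The secretory genes listed with Ckap4 were the most abundant. Of the 24 in the reference 22 were tested, 12 were higher, 6 lower and 4 not called, with a median of 0.61 log2. Jchain, which joins secreted antibodies into polymers, was higher by 5.97 ± 0.59 and Mzb1, a chaperone of antibody secretion, by 5.85 ± 0.55. The other genes named from this list differed less. The ribosome receptor Rrbp1 was higher by 1.38 ± 0.09, Sec61b of the translocon by 0.44 ± 0.08 and the secretory regulator Xbp1 by 2.46 ± 0.12, while Reep5, at -0.07 ± 0.08, was not called (adjusted p = 0.423, edgeR).

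The family of Ngfrap1 was mostly near 0 in IVA12 cells. Of 21 listed Bex, Tceal and neurotrophin receptor genes 7 were tested, 4 were higher and 3 lower in IVA12, with a median of 1.53 log2, and 16 stayed under 1 CPM in IVA12, Ngfr, the p75 receptor itself, at 0 in both lines. The most abundant were Wbp5 (Tceal9), at 36.8 to 62.3 CPM in IVA12 against 0 to 2.51 in EL4 and a difference of 5.54 ± 0.41, and Maged1, a partner of the p75 receptor, at 35.2 to 47.2 against 5.47 to 20.7 CPM and a difference of 1.53 ± 0.18. The receptor homologue Nradd was higher by 2.05 ± 0.34 and the sorting receptor Sort1 by 3.74 ± 0.37, both at under 4 CPM in every library.

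Across the 14 sums of 7 libraries and 2 lines, the genes most like each member were found by the root mean square (RMS) difference of log2(CPM + 1), each gene centred on its own mean. For Epcam these were Cdkn2a (RMS 0.275), a cell cycle inhibitor, and Ngfrap1 (0.352). Ckap4 was nearest to Ms4a1 (0.181) and to Idh2, a mitochondrial dehydrogenase (0.298). Ngfrap1 was nearest to Gsto1 (0.23) and Fes (0.291), Cd24a to Gng12 (0.266) and Sdc1 (0.298), and Ctss to Lgmn (0.262) and Cd81 (0.305). The measure takes in the line difference, the EL4 values and the split between preparations together, all from the same 7 libraries.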

How the data were processed

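The deposited values were raw UMI counts per gene and barcode, with all barcodes kept. The authors took a random part of each library's reads with seqtk and counted those with Cell Ranger (3.0.2 per the labels) against a combined human (hg19) and mouse (mm10) reference. Total UMIs ran from 24790710 to 251164949 per library, and counting intervals cover counting error only. The other 3′ v2 library was not analysed here. Replicates are numbered by accession, and nothing says that libraries of 1 preparation came from separate cultures, so p-values measure only the spread between libraries. The 9 pairs of libraries with the same barcode set shared 0 to 9 mouse barcodes, 17 in all, 6 of them EL4 in 1 library and IVA12 in the other.

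The counts of mouse genes were summed per library and line and fitted with edgeR 4.0.16 (R 4.3.3, quasi-likelihood test, TMM, filterByExpr, Benjamini-Hochberg adjustment over all genes tested, threshold 0.05), with DESeq2 1.42.0 as an alternative. Lines were compared with library as a block, and Lgals1 and S100a6 were not counted. On simulated counts, the line fit on 11670 genes recovered 87% of genes changed 2-fold, and the kit fit on 11981 genes recovered 11% of those and 95% of genes changed 8-fold. For spread, cells were thinned to 10000 mouse UMIs by drawing without replacement. Exact permutation tests ran over libraries. The members, gene lists, tests and alternatives were chosen with earlier results of these data known. The text names the members, the 4 tested genes of each list with the highest IVA12 level and any above the list's member, and 2 genes most like each member (predicted genes left out). A gene that this rule selects is not reported here. Genes named outside that rule were chosen after their values were seen. No mouse annotation was used here, so no gene positions or sequences are given.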

Additional observations from a re-analysis of the deposited data

Results flagged for a closer look

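In 3′ v3, the Epcam level of EL4 cells without marker-rich barcodes was 1.5% of the IVA12 level in replicate 3, far from the 3 other libraries at 0.6%, 0.625% and 0.749%. It was the only one of 40 groups of 4 libraries checked in which a sample stood so far from the rest, where chance gives about 1 in 20. That library also had the highest share of mouse UMIs in human cells, a median of 3.62%, and the part of this in the Epcam value was not tested.

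The IVA12-minus-EL4 difference was smaller in 3′ v3 than in 5′ v1 by the fitted line-by-kit term, which was -1.96 log2 for Ngfrap1, -2.10 for Cd24a and -1.66 for Ctss. These members were flagged by an adjusted p under 0.05 in edgeR, while Epcam and Ckap4, not flagged, had terms of like size, given above. Nothing is read from that threshold, since the members were chosen by the difference between the lines. In addition, EL4 cells of 5′ v1 replicate 2 held 1 to 3 UMIs of each member. Kit and cell mixture cannot be told apart, and without 5′ v1 replicate 2 the terms of Ngfrap1, Cd24a and Ctss were -1.24, -1.39 and -1.02.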

How the results depend on the processing

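Between the kits in IVA12 cells, 1163 genes were called, 1978 with DESeq2's Wald test, 6992 with preparation F and 7859 with preparation G, and 23 to 874 with 1 library left out (23 and 32 without 5′ v1 replicates 1 and 2, 730 and 775 without 3′ v3 replicates 2 and 4). For the line-by-kit term 3907 genes were called, and 1550 to 4117 with 1 library left out (1911 and 1550 without 5′ v1 replicates 1 and 2), 1062 with mitochondrial shares under 5%, 5171 with preparation F and 5791 with G. That mitochondrial limit left 737 called between the kits.

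Epcam differed between the kits by 0.0444 log2 with preparation F and -1.22 with G, Ngfrap1 by 0.20 and -1.09 and Ctss by 0.28 and -0.995, and Ckap4 by 0.0691 with F, 0.0163 with DESeq2 size factors, 0.0121 at a minimum of 20000 UMIs and -0.0306 to 0.0395 with 1 library left out. Cd24a ran from -1.18 to -1.08 with 1 library left out and lost its call without either 5′ v1 library. The line-by-kit term of the members, given with no test, was -4.27 to -8.21 without marker-rich barcodes by the full list (at 20% or 10%), -3.04 to -3.97 without Pou2af1 and Cd37 in it, and nearest to 0 without 5′ v1 replicate 2 (-0.95 to -1.39).

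EL4 cells differed from human cells, without marker-rich barcodes by the full marker list, by 0.00543 UMIs per cell for Epcam, 0.00958 for Ckap4, 0.00500 for Ngfrap1, 0.00159 for Cd24a and 0.00664 for Ctss, none past the threshold. Without Pou2af1 and Cd37 in that list, chosen after seeing the data, Ngfrap1 (0.00700) and Cd24a (0.0043) were not past it. With 1 library left out the difference ran from 0.0488 to 0.0679 for Ngfrap1 and from 0.0195 to 0.0362 for Cd24a. At a purity of 98%, 3′ v3 replicate 3 kept only 2 human cells. Member UMIs per EL4 cell also moved with the cell limits. With mitochondrial shares under 5%, which left 72 EL4 cells in 3′ v3 replicate 4, Ngfrap1 went there from 0.121 to 1.36 and Cd24a from 0.106 to 0.903. With an EL4 limit of 0.08%, Ckap4 in 3′ v3 replicate 2 went from 0.117 to 0.0222. The Fano difference turned for Ngfrap1 thinned to 5000 UMIs (0.0235), and with 1 library left out it ran from -0.162 to 0.0256 for Ckap4 and from -0.28 to 0.10 for Ctss. The causes of these shifts were not tested.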
